A study of Homo sapiens with 5 samples.

Results

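A set of 10 proteins that cells release to tune Wnt signalling was followed through the differentiation of GnRH neurons from human pluripotent stem cells: SFRP1, SFRP2, FRZB, SFRP5, DKK1, DKK3, RSPO1, RSPO2, RSPO3 and CER1. They were taken by symbol, and all 10 were found once among the 36601 genes listed for D0 to D10 and once among the 33538 listed for D22 to D26. The cells were the human embryonic stem cell line WA09, read by droplet single-cell RNA sequencing in 8 libraries, each 1 condition without a replicate. D0 was undifferentiated. D5_dSMADi and D10_dSMADi had received dual SMAD inhibition (dSMADi), which is dorsomorphin with SB431542, and D5_XAV939 and D10_XAV939 had received the same with 10 μM XAV939, a tankyrase inhibitor used to lower β-catenin signalling. D22, D24 and D26 came from the protocol without XAV939, in which FGF8 followed dSMADi, the cells had been frozen and thawed, and the Notch inhibitor DAPT was given from D21. The libraries of D0 to D10 were tagged and pooled in 1 droplet run, whereas D22, D24 and D26 were run apart. Day, run and depth thus cannot be told apart between the 2 sets or among D22, D24 and D26.

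Wnt ligands bind a Frizzled receptor together with LRP5 or LRP6 and keep β-catenin from being degraded. The secreted Frizzled-related proteins, SFRP1, SFRP2, SFRP5 and FRZB (also called SFRP3), carry a Frizzled-like domain and bind Wnt outside the cell. DKK1 binds LRP5 and LRP6 and blocks them, DKK3 is a divergent member of the same family whose action on Wnt is less settled, and CER1 (Cerberus) binds Nodal, BMP and Wnt. The R-spondins, RSPO1 to RSPO3, act the other way: with the receptors LGR4, LGR5 and LGR6 they remove the ligases ZNRF3 and RNF43 from the membrane, which leaves more Frizzled there. In the early forebrain, low Wnt signalling favours anterior fates, and secreted antagonists are among the factors that keep it low.

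Between 1008 and 11056 cells of a library were kept, with 58073098 to 130440502 UMIs (unique molecular identifiers, each counting 1 captured RNA molecule) and a median of 7180 to 69455.5 UMIs per cell. Levels are given as CPM, the UMIs of a gene scaled to 1e+06 UMIs of its library, with a 95% Poisson interval where printed, and 3 UMIs correspond to 0.023 to 0.0517 CPM. UMIs were read at the 3′ end and count molecules whatever the length of the RNA, so levels were not divided by length. All intervals cover counting error only. They treat each UMI as independent, so the true error is larger wherever a gene's UMIs sit in a handful of cells. In each of the 5 pooled libraries, the tag with the most UMIs was the labelled one in every barcode, and these libraries shared 0 barcodes. Libraries of separate runs shared 1 to 37 barcodes by sequence. Of the 7 pluripotency markers, all reached 1 CPM at D0, where they summed to 5690 CPM, against 286 to 462 CPM at D5 and D10. POU5F1, which defines D0 cells, still had up to 15.4 CPM at D10, or 5.78% of its level over the pooled run. If all of that were free RNA, the same share of each member's pooled level would be 57.7 CPM for SFRP1, 39.6 for SFRP2, 3.42 for FRZB, 0.407 for DKK3, 0.315 for RSPO2 and 0.0862 for RSPO3. Pooled levels near or below these values were not read as expression.

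Promoters are printed for members whose level differed by at least 1.5-fold with XAV939 at D5 or D10, with at least 50 UMIs over both libraries, and that the RefSeq promoter table holds (GRCh38.p14, 300 bases each, from 250 before to 50 after the start of the gene, 5′ to 3′). Capitals mark CTTTG or its reverse CAAAG, the core letters bound by the TCF/LEF factors that act with β-catenin. This core stood in 47.5% of the 35116 promoters of the table and in 3 of the 7 members it holds, RSPO3, DKK1 and CER1. The longer CTTTGAT or ATCAAAG stood in 2.62% of all promoters and in 0 of the 7.
SFRP2, chr4:153789034-153789333, minus strand: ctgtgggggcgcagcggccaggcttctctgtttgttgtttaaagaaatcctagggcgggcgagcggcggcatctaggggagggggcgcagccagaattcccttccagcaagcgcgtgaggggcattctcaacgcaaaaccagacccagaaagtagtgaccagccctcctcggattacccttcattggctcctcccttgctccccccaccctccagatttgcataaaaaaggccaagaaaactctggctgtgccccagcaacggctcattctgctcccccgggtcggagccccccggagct
FRZB, chr2:182866588-182866887, minus strand: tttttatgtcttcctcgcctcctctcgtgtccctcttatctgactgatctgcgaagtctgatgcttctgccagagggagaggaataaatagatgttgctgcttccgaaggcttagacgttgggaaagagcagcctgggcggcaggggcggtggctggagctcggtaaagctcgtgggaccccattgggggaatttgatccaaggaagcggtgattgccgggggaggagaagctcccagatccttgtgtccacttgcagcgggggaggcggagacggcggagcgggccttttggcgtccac
RSPO3, chr6:127118421-127118720, plus strand: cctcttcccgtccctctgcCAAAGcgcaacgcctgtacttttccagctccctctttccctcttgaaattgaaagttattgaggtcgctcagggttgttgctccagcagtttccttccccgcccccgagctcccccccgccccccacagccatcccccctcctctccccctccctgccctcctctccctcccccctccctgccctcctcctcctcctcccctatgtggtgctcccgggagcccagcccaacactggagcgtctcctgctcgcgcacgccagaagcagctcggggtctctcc
The windows of SFRP2 and FRZB held 0 matches to the core and that of RSPO3 held 1. CpG dinucleotides numbered 15 in SFRP2, 17 in FRZB and 13 in RSPO3, beside a median of 14 over the table.

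SFRP1 and SFRP2 made up nearly all of the members' RNA in the first 10 days. Together they held 98.9% of the members' UMIs at D0, 93.3% to 97.3% at D5 and D10, 55.0% at D22, 8.34% at D24 and 40.5% at D26. R-spondins summed to 0.606 CPM at D0, to 24.6 CPM in D5_dSMADi, to 2.36 to 8.40 CPM in the other libraries of D5 and D10, to 150 CPM at D22, to 461 CPM at D24 and to 12.2 CPM at D26. The sum of the SFRP family, then nearly all SFRP1 and SFRP2, thus stood highest from D0 to D10. The sum of R-spondins, by then nearly all RSPO3, stood highest at D22 and D24. FRZB did not follow the sum of its family, with 8.08 CPM at D0 and 53.3 CPM at D26. The plot of levels by library shows all members on 1 scale.

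**Figure D1:**
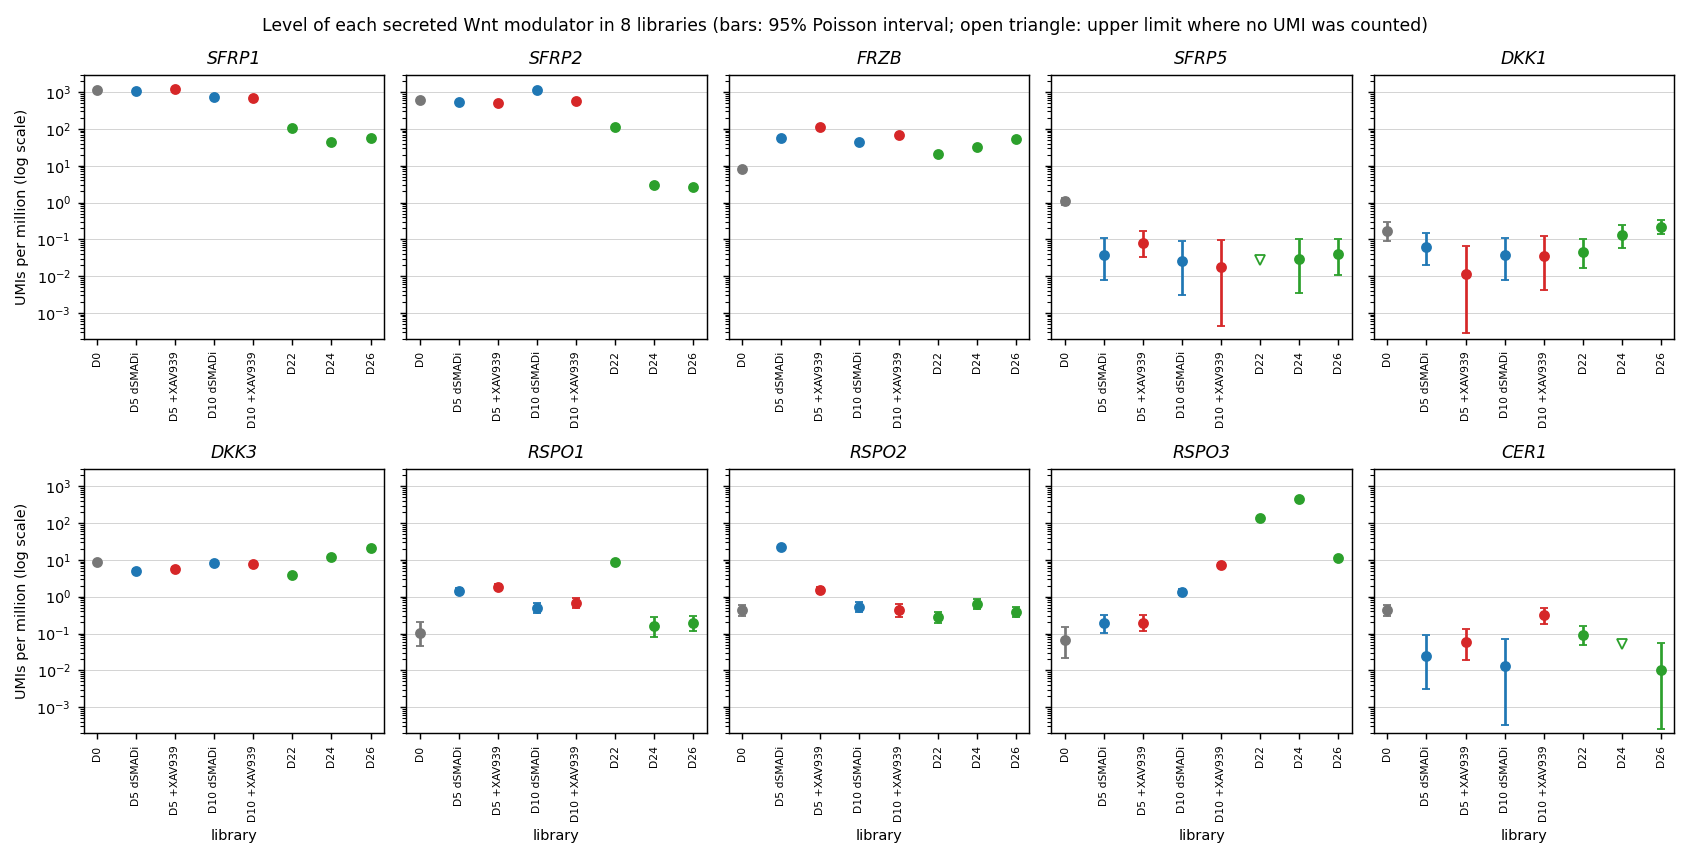
Level of each member in CPM on a log scale (y axis) in the 8 libraries (x axis), with 95% Poisson intervals; grey is D0, blue dSMADi, red dSMADi with XAV939, green D22 to D26, and an open triangle is the upper limit where no UMI was counted. SFRP1 and SFRP2 lie between 517 and 1227 CPM from D0 to D10, RSPO2 stands at 23.0 CPM in D5_dSMADi and under 2 CPM elsewhere, and RSPO3 reaches 460 CPM at D24.

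SFRP1 is at chr8:41261962-41309473 (minus strand, GRCh38, GENCODE 44). Its level was 1174 CPM at D0 (95% interval 1166 to 1182), 1083 in D5_dSMADi, 1227 in D5_XAV939, 725 in D10_dSMADi, 675 in D10_XAV939, 103 at D22, 43.1 at D24 and 56.0 at D26. At least 98.5% of cells in each library of D0 to D10 had an SFRP1 UMI after every cell was thinned to 10000 UMIs, and 99.5% to 100% did before thinning. Free RNA at the 57.7 CPM given above would also leave a UMI in many cells without expression, so these shares are not read as shares of expressing cells. The median cell held 16 to 83 UMIs of SFRP1 in these 5 libraries, unthinned. At D22, 12.2% of cells thinned to 1500 UMIs had a UMI (53.5% unthinned), and at D24 5.84% (25.0% unthinned).

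SFRP2, which binds Wnt in the same manner, is at chr4:153780591-153789083 (minus strand). Its level was 594 CPM at D0, 545 in D5_dSMADi, 517 in D5_XAV939, 1176 in D10_dSMADi, 576 in D10_XAV939, 110 at D22, 2.91 at D24 and 2.70 at D26. Of these, D10_dSMADi stands above all others, and D10_XAV939 lies within the range of D0 and D5. From D22 to D24 its level was 37.8-fold lower (95% interval 32.9 to 43.6), the steepest step of any member between those days after RSPO1.

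FRZB is at chr2:182833275-182866637 (minus strand). Its level was 8.08 CPM at D0, 57.7 in D5_dSMADi, 115 in D5_XAV939, 42.8 in D10_dSMADi, 66.9 in D10_XAV939, 20.6 at D22, 32.5 at D24 and 53.3 at D26. Both XAV939 libraries lie above their partners of the same day. In thinned cells a UMI was found in 8.73% at D0, 41.8% in D5_dSMADi, 66.2% in D5_XAV939, 32.7% in D10_dSMADi and 46.5% in D10_XAV939. The unthinned shares were 42.8%, 75.8%, 92.8%, 67.3% and 75.7%.

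SFRP5 (chr10:97766751-97771999, minus strand) was close to silent. It had 81 UMIs at D0, or 1.07 CPM (0.848 to 1.33), and 3, 7, 2, 1, 0, 2 and 4 UMIs in the later libraries, D5_dSMADi first and D26 last. The D0 level was 28.4-fold above that of D5_dSMADi, a ratio that rests on 3 UMIs and has an interval of 9.36 to 140. At D22 no UMI was counted, with a 95% upper limit of 0.0283 CPM, and 3 UMIs would make 0.023 CPM.

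DKK1 (chr10:52314281-52318042, plus strand), an induced feedback antagonist in many tissues, was hardly detected. The UMIs numbered 13 at D0, 5 in D5_dSMADi, 1 in D5_XAV939, 3 in D10_dSMADi, 2 in D10_XAV939, 6 at D22, 9 at D24 and 22 at D26, where they made 0.221 CPM. PRKG1-AS1 overlaps it on the other strand. No ratio with XAV939 could be read at these counts.

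DKK3 (chr11:11956207-12009769, minus strand, overlapped by USP47 on the other strand) had a low level in all libraries. It stood at 8.85 CPM at D0, 5.11 in D5_dSMADi, 5.78 in D5_XAV939, 8.23 in D10_dSMADi, 7.54 in D10_XAV939, 3.89 at D22, 11.7 at D24 and 20.7 at D26. D22 was thus the lowest library and D26 the highest.

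RSPO1 (chr1:37611350-37634892, minus strand) had 2 separate high points. Its level was 0.105 CPM at D0, 1.42 in D5_dSMADi, 1.89 in D5_XAV939, 0.495 in D10_dSMADi, 0.689 in D10_XAV939, 8.78 at D22, 0.157 at D24 and 0.191 at D26. From D22 to D24 it was 56.0-fold lower, from 1145 to 11 UMIs.

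RSPO2 (chr8:107899316-108083642, minus strand) stood out in 1 library. It had 0.435 CPM at D0, 23.0 in D5_dSMADi (21.97 to 24.1), 1.499 in D5_XAV939 (1.25 to 1.78), 0.533 in D10_dSMADi, 0.430 in D10_XAV939, 0.276 at D22, 0.627 at D24 and 0.392 at D26. At D0 and D10 this is close to the 0.315 CPM that free RNA could give in the pooled run. D5_dSMADi thus stood far above all other libraries, and D5_XAV939 was the next highest. Of thinned cells, 18.3% had a UMI in D5_dSMADi and 1.14% in D5_XAV939 (38.8% and 3.87% unthinned), against 0.397% at D0.

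RSPO3 (chr6:127118671-127199481, plus strand) ranged from a background level at D0 to 460 CPM at D24. Its level was 0.0659 CPM at D0, 0.188 in D5_dSMADi, 0.196 in D5_XAV939, 1.33 in D10_dSMADi, 7.28 in D10_XAV939, 141 at D22, 460 at D24 and 11.6 at D26. It was below the free RNA value of 0.0862 CPM at D0 and under 0.2 CPM at D5, and between D24 and D26 it was 39.6-fold lower (37.4 to 42.1). At D24, 42.2% of cells thinned to 1500 UMIs had an RSPO3 UMI (73.4% unthinned), against 1.501% at D26 (5.93% unthinned).

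CER1 (chr9:14719724-14722733, minus strand), a marker of anterior endoderm and mesendoderm in the embryo, was nearly silent. The UMIs numbered 33 at D0, 2 in D5_dSMADi, 5 in D5_XAV939, 1 in D10_dSMADi, 18 in D10_XAV939, 12 at D22, 0 at D24 and 1 at D26. Its highest level was 0.435 CPM at D0. The 5 mesendoderm markers (TBXT, MIXL1, EOMES, SOX17 and GSC) summed to 0.533 CPM in D10_dSMADi and 2.96 CPM in D10_XAV939, in the same direction as CER1. GSC had 5 and 83 UMIs there and EOMES, also a gene of early glutamatergic neurons, 10 and 62. MIXL1 had 27 and 26, TBXT 0 in both and SOX17 0 and 1. In D5_dSMADi and D5_XAV939 the list summed to 2.27 and 1.71 CPM, with 153 and 115 UMIs of GSC. Their part in the CER1 counts was not tested.

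The comparison with XAV939 asks how members differ when XAV939, given to lower Wnt signalling, is present from D0. With 1 library per condition the difference has no replicate check, no test was made, and the interval is that of the split of UMIs between the 2 libraries. Of the 10 members, 6 had at least 50 UMIs over both D5 libraries and 7 over both D10 libraries. At D5, RSPO2 was the 1 member at least 2-fold lower with XAV939, and 1.64% of all 15966 genes with such counts were. At least 2-fold higher were 0 members and 1.79% of all genes. At D10, 1 member was at least 2-fold lower, SFRP2 (4.52% of 16077 genes), and 1 was at least 2-fold higher, RSPO3 (2.7% of all genes). The median log2 ratio over all these genes was 0.05 at D5 and -0.00 at D10.

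**Figure D2:**
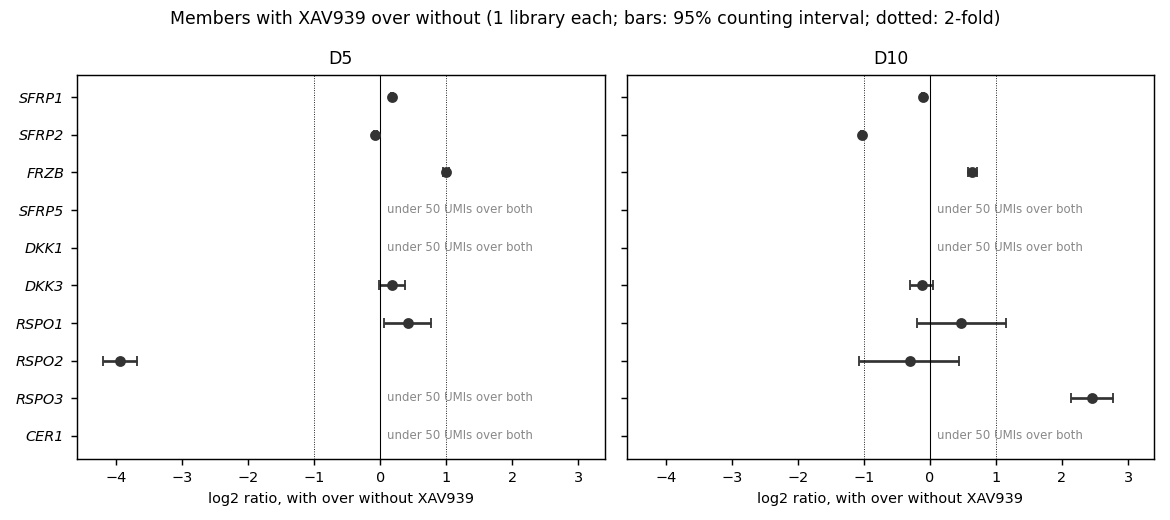
The log2 ratio of CPM with over without XAV939 (x axis) for each member (y axis) at D5 and D10, with 95% counting intervals and dotted lines at 2-fold; members under 50 UMIs over both libraries carry no point. RSPO2 lies at -3.94 at D5, SFRP2 at -1.03 and RSPO3 at 2.45 at D10, and FRZB at 1.00 and 0.64.

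RSPO2, the most abundant R-spondin of D5_dSMADi, had 1834 UMIs without and 130 with XAV939 at that day, a log2 ratio of -3.94 (95% interval -4.21 to -3.68), or 15.4-fold lower (12.8 to 18.5). Cells clustered without the members fell at D5 into a larger and a smaller cluster for each condition. In the smaller ones RSPO2 had 22.6 CPM without XAV939 (led by ID1, ID3, WLS, SHISA2 and EGLN3) and 1.95 CPM with it (led by PAMR1, UBE2C, ASPM, DEPDC1 and PCDH18). In the larger ones it had 23.6 CPM without (ID3, ID1, EGLN3, LHX5 and SHISA2) and 1.10 CPM with it (PAMR1, FJX1, PIK3R3, PCDH18 and CCNG2), so that the log2 ratios were -3.53 and -4.42. The pairing is by size alone. These 4 clusters carry no cell type name, and each holds mostly 1 library, so a cluster may be the library. Markers of roof plate, a tissue at the dorsal midline where R-spondins are expressed in the embryo, moved in the same direction at D5. Its 3 markers summed to 2.87 CPM without and 0.980 CPM with XAV939, LMX1A having 1.82 and 0.311 CPM, MSX1 1.05 and 0.669 CPM, and TTR 0 UMIs in both. At D10 the same list went the other way, with 0.939 CPM without and 1.96 CPM with XAV939. The part of these markers in the RSPO2 difference was not tested. Among the other R-spondins, RSPO1 was not lower at D5, with 1.42 CPM without and 1.89 CPM with XAV939. RSPO3 stood there at 0.188 and 0.196 CPM. At D10 RSPO2 had 42 and 25 UMIs (log2 ratio -0.31, -1.08 to 0.44), at a level close to background in both, and nothing can be read from that ratio.

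FRZB, the decoy, was higher with XAV939 at both days. At D5 it had 57.7 CPM without and 115 CPM with XAV939, a log2 ratio of 1.00 (0.95 to 1.05) that fell just short of 2-fold at 1.99-fold. At D10 the levels were 42.8 and 66.9 CPM, with a log2 ratio of 0.64 (0.58 to 0.71). The smaller and larger clusters of D5 gave 111 and 119 CPM with XAV939 against 55.2 and 58.5 CPM without it. A few cells of D5_dSMADi were placed in the clusters made up of XAV939 cells, 16 in the larger and 15 in the smaller one, and there FRZB stood at 107 CPM (78.6 to 143) and 98.0 CPM (76.4 to 124). RSPO2 in the same cells stood at 7.00 CPM (1.44 to 20.5, from 3 UMIs) and 15.4 CPM (7.69 to 27.6), above the XAV939 cells of those clusters. Since members were left out of the clustering, these cells were not placed by them. Other genes that differ with XAV939 could still place them, so the placing is not independent of XAV939. Whether any of these cells are doublets or wrongly tagged was not tested.

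**Figure D3:**
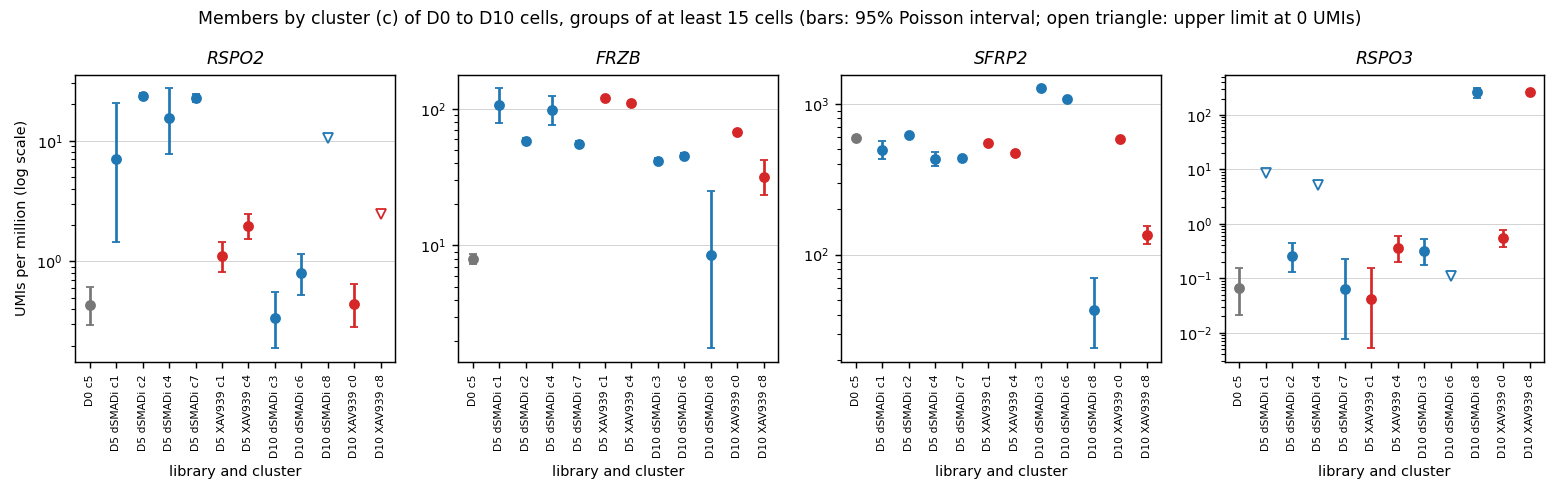
Levels of RSPO2, FRZB, SFRP2 and RSPO3 in CPM on a log scale (y axis) in each cluster (c) of the D0 to D10 libraries (x axis) with at least 15 cells, with 95% Poisson intervals; an open triangle is the upper limit where no UMI was counted. RSPO2 stands near 23 CPM in both large D5_dSMADi clusters, SFRP2 above 1000 CPM only in the D10_dSMADi clusters 3 and 6, and RSPO3 near 260 CPM in neuron-like cluster 8 of both D10 libraries.

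SFRP2 was 1.05-fold lower with XAV939 at D5, a log2 ratio of -0.07 (-0.09 to -0.06) whose sign differed between clusters, with -0.16 in the larger pair and 0.11 in the smaller pair. At D10 it had 1176 CPM without and 576 CPM with XAV939, a log2 ratio of -1.03 (-1.05 to -1.01), which is 2.04-fold lower and just past 2-fold. Between D5 and D10 SFRP2 was 2.16-fold higher in the dSMADi culture and 1.11-fold higher in the XAV939 culture. The median cell held 34 UMIs without and 14 UMIs with XAV939, unthinned, and a UMI was found in 99.5% and 97.4% of thinned cells, shares to which free RNA also adds. In neural progenitor-like cells, which are 99.3% and 97.1% of the D10 libraries, SFRP2 stood at 1181 and 587 CPM. The XAV939 progenitor cluster (led by genes that include LINC01551, TAGLN, IGFBP3 and DIPK1C) had 588 CPM, and the D10_dSMADi clusters had 1272 CPM (WNT2B, LINC01198, ANKRD34B and NR2F1 among its leading genes) and 1071 CPM (ID4, NR2F1, PHLDA3 and SOX3 among them). The difference was thus present against both, at 2.16-fold lower than the first and 1.82-fold lower than the second, which is not past 2-fold. The 7 markers of mesenchyme and neural crest summed to 40.4 CPM in D10_dSMADi and 9.49 CPM in D10_XAV939, with 2 of 7 over 1 CPM in each. In undifferentiated cells of D0 the same list summed to 33.9 CPM, and in D5_dSMADi and D5_XAV939 to 16.1 and 12.6 CPM. The part of these markers was not tested.

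RSPO3 had 105 UMIs in D10_dSMADi and 423 in D10_XAV939, a log2 ratio of 2.45 (2.14 to 2.77), or 5.46-fold higher. Nearly all of them came from a small cluster of neuron-like cells, led by STMN2, NEFM, SST, ROBO3 and NHLH1. This cluster held 17 of 2416 cells without XAV939 (0.704%, Clopper-Pearson interval 0.410 to 1.12) and 61 of 2168 with it (2.81%, 2.16 to 3.60). Within it the level of RSPO3 was 259 CPM (208 to 318) without and 264 CPM (239 to 292) with XAV939. In D10_dSMADi, however, 66 of the 105 UMIs lay in 1 cell, and 7 of the 17 cells had any, against 52 of 61 in D10_XAV939. Leaving out the cell with the most RSPO3 UMIs in each library, a choice made after seeing the data, gave a log2 ratio of 3.61. Without the neuron-like cells, 14 and 31 UMIs remained and RSPO3 no longer reached 50 UMIs. The higher RSPO3 level in D10_XAV939 thus came mostly from 61 cells, and since the level of the D10_dSMADi neuron-like cells rests on 1 cell, how far the share of such cells and their level each contribute cannot be told apart.

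Of the other members, SFRP1 had log2 ratios of 0.18 (0.17 to 0.19) at D5 and -0.10 (-0.12 to -0.09) at D10, that is, 1.13-fold higher and 1.08-fold lower. DKK3 stood at 0.18 (-0.01 to 0.37) and -0.13 (-0.30 to 0.05), and both intervals hold 0. At D10 the neuron-like cells held 11.2% of the DKK3 UMIs of D10_XAV939. The XAV939 progenitor cluster had a log2 ratio of -0.34 (-0.55 to -0.13) against the larger D10_dSMADi cluster and -0.08 (-0.31 to 0.16) against the smaller one. RSPO1 had 0.42 (0.06 to 0.77) at D5, from 113 and 164 UMIs, and 0.48 (-0.20 to 1.15) at D10. In thinned cells, with 81 and 29 UMIs over both libraries, these were 0.10 and 1.08, so the size of neither can be read closely. CER1 had 1 UMI in D10_dSMADi and 18 in D10_XAV939, the 18 all in neural progenitor-like cells and 0 in neuron-like cells. That ratio of 24.4 has a counting interval of 3.85 to 1017, and CER1 was left uncounted above since 19 UMIs are under the limit of 50. The members SFRP5, DKK1, CER1 and, at D5, RSPO3, were thus too low for a ratio. At D10 the log2 ratios of FRZB and SFRP2, both Frizzled-related, had opposite signs, although FRZB was not past 2-fold.

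The partners of the members were counted by the same rule and read against the same shares of all genes, 1.64% lower and 1.79% higher at D5 and 4.52% lower and 2.7% higher at D10, from lists chosen with earlier results of these data known. Of 14 further modulators listed with the secreted ones, 6 were measured at D10, 1 was lower (TPBG, which is a membrane protein and not secreted, from 198 to 92.5 CPM) and 0 were higher, with a median log2 ratio of 0.02. DKKL1 (6.64 and 4.75 CPM), APCDD1 (0.406 and 0.620) and SOSTDC1 (0.444 and 0.620) did not reach 2-fold, and at D5 0 of 6 did. Of 9 receptors and turnover genes, 7 were measured at D10 and 2 were higher, both of them R-spondin receptors: LGR4 at 16.2 CPM without and 44.1 CPM with XAV939 (log2 ratio 1.44) and LGR5 at 2.62 and 5.92 CPM (1.18). KREMEN1 (1.41 and 1.03 CPM) and the ligase gene ZNRF3 (12.8 and 10.2 CPM) were not past 2-fold. At D5, LGR5 was the 1 of 7 that was higher, from 0.238 to 0.530 CPM. That ratio rests on 19 UMIs without and 46 with XAV939 (log2 ratio 1.15, 0.35 to 2.01). LGR4 stood at 87.7 and 86.9 CPM. In the list of receptors and turnover genes the median log2 ratio was 0.11 at D5 and 0.40 at D10.

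Wnt ligands and their carrier were counted next. Of 21 Wnt ligand and carrier genes, 8 were measured at D10, of which 4 were lower and 0 higher with XAV939, and the median log2 ratio was -0.87. WLS, which carries Wnt to the cell surface, had 267 CPM without and 21.5 CPM with XAV939 (log2 ratio -3.63), and WNT8B had 113 and 3 UMIs (log2 ratio -4.80, -7.09 to -3.21). PORCN, which adds the lipid to Wnt, and WNT3 had log2 ratios of 0.54 and 0.50. At D5, 2 of 7 were lower and 1 higher, with a median of -0.06. Among 10 Frizzled receptors, which the SFRP proteins resemble, 9 were measured, and at D10 3 were higher and 1 lower. FZD8 went from 3.19 to 20.7 CPM and FZD5 from 40.8 to 245 CPM, while FZD9 (2.77 and 1.07 CPM) was lower and FZD6 (9.67 and 6.49 CPM) was not past 2-fold. At D5, 3 of 9 were higher and 0 lower.

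Genes that β-catenin induces as feedback were a further list. It shares LGR5 and ZNRF3 with the receptors and turnover genes and APCDD1 with the further modulators, so these genes are counted again here. Of 12, 9 were measured at both days, 0 were at least 2-fold lower, LGR5 was the 1 that was higher at each day, and the median log2 ratio was 0.16 at D5 and 0.22 at D10. AXIN2 had 4.63 CPM without and 4.13 CPM with XAV939 at D5 and 4.24 and 3.22 CPM at D10 (log2 ratio -0.40, -0.66 to -0.13). APCDD1 (log2 ratio 0.61 at D10) and ZNRF3 (-0.33) were not past 2-fold. Of 7 genes of the Nodal pathway, on which CER1 acts, 3 were measured and 0 passed 2-fold at D5 or D10, the log2 ratio at D10 being 0.78 for LEFTY1 and 0.31 for FOXH1.

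From D22 to D26, members differed between cell classes within a day. Cells were clustered without the members and named from marker lists as proliferating neural progenitor-like (PNP-like), nonproliferating neural progenitor-like (NNP-like), glutamatergic neuron-like (Glut-like), GnRH-GABA-like, that is, carrying GNRH1 with GABAergic genes, and IRX-like, carrying CRABP1 and IRX genes. PNP-like and NNP-like cells made up 17.7% and 63.2% of D22 and were almost absent later, whereas Glut-like cells made up 9.99%, 85.4% and 78.5% of the cells at the 3 days. The largest clusters came almost wholly from 1 library, so class and day are partly the same thing.

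**Figure D4:**
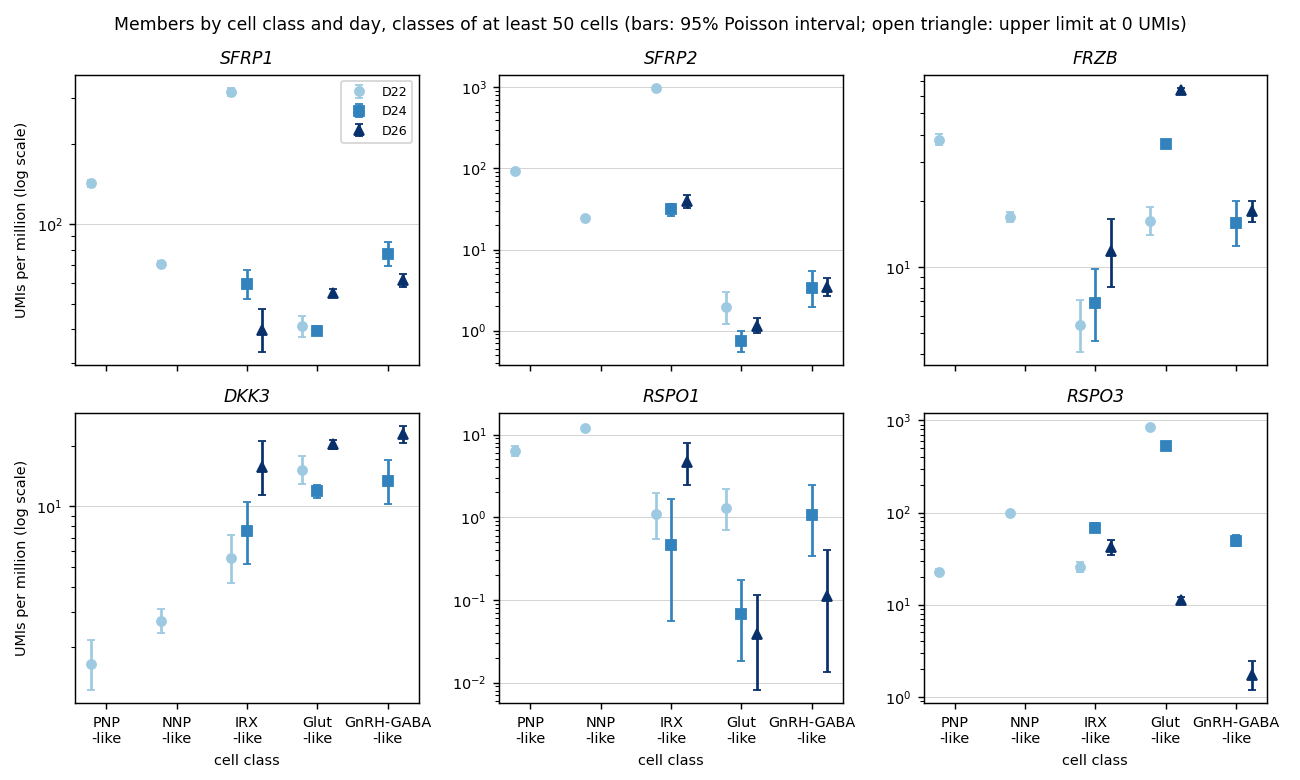
Levels of 6 members in CPM on a log scale (y axis) in named classes of at least 50 cells (x axis) at D22 (circles), D24 (squares) and D26 (triangles), with 95% Poisson intervals. SFRP2 reaches 970 CPM in IRX-like cells of D22, and RSPO3 in Glut-like cells goes from 858 CPM at D22 to 11.3 CPM at D26.

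SFRP1 and SFRP2 were highest in IRX-like and PNP-like cells of D22. SFRP1 at D22 stood at 316 CPM in IRX-like, 142 in PNP-like, 70.8 in NNP-like and 41.1 in Glut-like cells. SFRP2 stood at 970 CPM in IRX-like, 92.2 in PNP-like, 24.4 in NNP-like and 1.95 in Glut-like cells. SFRP2 in PNP-like cells was 192 CPM at a clustering resolution of 0.25. With each library clustered alone, SFRP2 in NNP-like and Glut-like cells was 8.55 and 7.94 CPM, and SFRP1 45.2 and 42.5 CPM, so that the gap between these classes depends on the clustering. The IRX-like cells, 6.69% of the D22 library, thus held 67.2% of its SFRP2 UMIs. Nearly all of them belonged to a cluster led by PTX3, WLS, CTGF, NR2F1 and AL359091.1, in which SFRP2 had 981 CPM at D22 (628 cells) and 98.6 CPM at D24 (96 cells). A second IRX-like cluster, led by genes that include CRABP1, ROBO3, SST and THSD7A, had 11.5 CPM at D24 and 20.7 CPM at D26. In IRX-like cells as a whole SFRP2 was 31.1-fold lower at D24 than at D22 (14.9 CPM in place of 31.2 CPM at D24 with each library clustered alone), so the step between those days was seen within the class as well as over the library, although different clusters make up the class at the 2 days. A UMI of both SFRP1 and SFRP2 was found in 2.40% of thinned D22 cells, and SFRP2 was found in 19.6% of cells with and 6.33% of cells without SFRP1, groups that may differ in depth and class. Later, SFRP1 was more even, with 39.6 CPM in Glut-like, 59.2 in IRX-like and 77.1 in GnRH-GABA-like cells of D24 and 55.1, 39.9 and 61.2 CPM at D26.

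FRZB was arranged otherwise. At D22 it stood at 38.0 CPM in PNP-like, 16.9 in NNP-like, 16.2 in Glut-like and 5.43 in IRX-like cells. With each library clustered alone the NNP-like and Glut-like values were 10.2 and 13.5 CPM, in the other order. In Glut-like cells it was higher at each later day, with 36.3 CPM at D24 and 63.6 CPM at D26, while in GnRH-GABA-like cells it stood at 15.9 (12.5 to 19.9) and 17.9 CPM (16.04 to 20.02), intervals that overlap. At D26 the Glut-like cells, 78.5% of the library, held 91.8% of FRZB UMIs. DKK3 was low in progenitors, with 1.65 CPM in PNP-like and 2.72 CPM in NNP-like cells of D22, and higher in neurons, with 15.2, 11.9 and 20.4 CPM in Glut-like cells of D22, D24 and D26 and 13.3 and 22.8 CPM in GnRH-GABA-like cells of D24 and D26.

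The R-spondins differed in the classes that held them. RSPO1 at D22 had 11.99 CPM in NNP-like, 6.31 in PNP-like, 1.30 in Glut-like and 1.11 in IRX-like cells, and NNP-like cells held 80.2% of its UMIs. The value of Glut-like cells was 0.351 to 3.83 CPM under other clusterings, and that of IRX-like cells 0.601 CPM without doublets. RSPO3 at D22 had 858 CPM in Glut-like, 98.3 in NNP-like, 25.96 in IRX-like and 22.7 in PNP-like cells, the last 2 with intervals that overlap. Glut-like cells, lowest of these classes for SFRP1 and SFRP2, were thus highest for RSPO3, and they held 50.5% of its UMIs, with 41.1% in the more numerous NNP-like cells. The highest RSPO3 cluster of D22 was led by EOMES, KLHL35, CNTN2, CRH and NXPH4, with 915 CPM over 806 cells, and the same cluster had 966 CPM over 87 cells of D24. In thinned D22 cells RSPO3 was found in 2.90% of cells with SFRP2 and in 15.7% of cells without it. EOMES, a transcription factor of early glutamatergic neurons that also marks mesendoderm, had 46.3 CPM at D22, 50.8 at D24 and 0.654 at D26. Of the other mesendoderm markers, TBXT and SOX17 had 0 UMIs on these days. MIXL1 had 77, 62 and 44 UMIs, and GSC had 44, 1 and 0.

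At D24 RSPO3 stood at 522 CPM in Glut-like, 68.5 in IRX-like and 49.7 in GnRH-GABA-like cells, and at D26 at 11.3, 42.0 and 1.73 CPM. The 42.0 CPM of IRX-like cells of D26 was 14.4 CPM with each library clustered alone. In Glut-like cells it was 46.4-fold lower at D26 than at D24, although most of them belong to different clusters on the 2 days. The D24 cluster (FSTL5, NTS, BAALC, GNG8 and AC008522.1) had 588 CPM over 116 cells of D22, 530 CPM over 7437 cells of D24 and 207 CPM over 54 cells of D26. The D26 cluster (GABRA2, CDH12, TNIP3, BRINP1 and MGAT4C) had 10.1 CPM over 8510 cells of D26 and 42.8 CPM over 233 cells of D24. How much of the 42.8 CPM is free RNA or doublets was not tested. In the D24 cluster, RSPO3 was thus lower in its few cells of D26 than in those of D24. The GnRH-GABA-like value at D24 is 10.8% of the library's level. Genes of glutamatergic neurons, TBR1, LHX1 and SLC17A6, stood there at 11.4%, 11.3% and 16.2% of theirs, and RSPO3 went down to 11.98 CPM once doublets were removed, so that RSPO3 in GnRH-GABA-like cells was not read as expression. RSPO3 in IRX-like cells went from 25.96 to 8.66 CPM at D22, in PNP-like cells from 22.7 to 10.2 CPM, and in IRX-like cells from 68.5 to 36.5 CPM at D24 with doublets removed. With doublets kept, the IRX-like values were 18.5% and 14.9% of the library's level at D22 and D24, and 362% at D26. Genes of glutamatergic neurons were not compared in IRX-like or PNP-like cells. Free RNA and expression thus cannot be told apart there at D22 and D24, and those values were not read as expression. RSPO2, under 0.7 CPM in each late library, stood at 1.01, 5.46 and 6.76 CPM in IRX-like cells of D22, D24 and D26 and under 0.3 CPM in Glut-like cells. The IRX-like values rest on 10, 24 and 19 UMIs. The cell with the most RSPO2 UMIs held 5, 5 and 6 in these libraries, so a few cells may carry the values.

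Genes most like each member were taken over 33 groups of at least 50 cells (library by cluster) among 9509 genes, by Pearson's r of log2(CPM + 1). These groups share libraries, depth and stage, and r is a description. Nearest to SFRP1 were CTSV (0.951), GRWD1 (0.9497) and CDC6 (0.946), and nearest to SFRP2 were YAP1 (0.949), MDFI (0.946) and CNBP (0.943), while SFRP1 and SFRP2 had 0.902 with each other. For FRZB they were RAB3IP (0.782), NR1D2 (0.770) and ING2 (0.730), and for DKK3 NDUFS7 (0.888), SULT4A1 (0.886) and CDC42 (0.885). RSPO2 had no close neighbour, with ZNF680 (0.670), ZCCHC7 (0.665) and WLS (0.662). For RSPO3 they were CTNNB1, the gene of β-catenin (0.916), EOMES (0.914) and BAALC-AS2 (0.912). RSPO3 ran against SFRP1 (-0.757) and SFRP2 (-0.676).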

How the data were processed

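The authors deposited counts of UMIs per gene and barcode, without normalization, aligned to GRCh38. The submitters' notes name Cell Ranger 3.1, and the matrix headers 3.1.0 for D22 to D26 and cellranger-6.1.2 for the pooled libraries. Files were matched to the pooled conditions by name and tag. Cells were kept by the study's limits, except that the complexity limit of D0 left 1 cell when read as a minimum and 1008 when read as a maximum, which was used. Doublets (Scrublet score of at least 0.25 in scanpy 1.11.5, 2.03% to 7.59% per library) stayed in. Clusters came from 2000 variable genes without the members, 30 components, 20 neighbours and Leiden (leidenalg 0.10.2) at resolution 0.3 for D0 to D10 and 0.5 for D22 to D26. A cluster was named from marker lists if 3 of its markers were detected, its score reached 0.5, and either its 10 leading genes held a marker or its score led the next by 0.5, unless more leading genes marked another class or, with no leading marker, its median UMI count was low for its libraries. Limits were set after seeing clusters. The authors' names are not in the files used, so classes may differ from theirs. Ratios have exact binomial and shares exact Clopper-Pearson 95% intervals. Those of ratios and the Poisson intervals were checked on simulated counts, and those of shares were not. The simulated counts were drawn independently, so the check does not cover UMIs that gather in a few cells. Thinned cells held 10000 (D0 to D10) or 1500 UMIs, and no cell was shallower. The strand setting of the counting is not given in the sources used here. All members were named, with at most 2 genes per pathway list and direction at D10, the 3 genes most like each member reaching 20 CPM, and 5 leading genes of a cluster, some of which are not reported here. Members and lists were chosen with earlier results of these data known. Alternatives tried are given in the closing section.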

Additional observations from a re-analysis of the deposited data

Results flagged for a closer look

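SFRP1 was flagged because its ratio with XAV939 had opposite signs at the 2 days, with counting intervals that leave out 0: a log2 ratio of 0.18 at D5 and -0.10 at D10. Each is the difference of 1 library from 1 other, and the difference between days was not tested. By cluster, the D10 value was -0.26 against the larger D10_dSMADi cluster and 0.16 against the smaller one. In both, the same XAV939 progenitor cluster (686 CPM) was compared, with 819 CPM in the larger and 613 CPM in the smaller D10_dSMADi cluster. Since only the D10_dSMADi side was split, the 2 values differ through the D10_dSMADi clusters. They give no XAV939 difference by kind of progenitor.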

How the results depend on the processing

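No paired analysis was possible because each condition is 1 library and the labels give no replicate numbers. The counts of members past 2-fold kept the same members, RSPO2 at D5 and SFRP2 and RSPO3 at D10, with all barcodes, with a stricter filter, without doublets, under median-of-ratios scaling, without mitochondrial and ribosomal protein genes, and in thinned cells. At D5 the number of members past 2-fold higher was 1 in place of 0 with cells weighted equally (FRZB), at 1.5-fold (FRZB) and with a minimum of 10 UMIs (SFRP5), where 1.97%, 6.85% and 3.96% of all genes were. At D10 it was 2 in place of 1 at 1.5-fold (FRZB) and with 10 UMIs (CER1), and 0 without the neuron-like cells, beside 6.78%, 4.25% and 2.06% of all genes. RSPO3 at D10 then had a log2 ratio of 1.62 from 45 UMIs, and 3.61 without the cell with the most UMIs in each library, an alternative chosen after seeing the data. RSPO2 at D5 was -4.21 in thinned cells, and FRZB at D5 0.94 under median-of-ratios scaling. SFRP2 at D10 was -1.002 without a cell filter, -1.06 with the stricter one, -1.07 without mitochondrial and ribosomal protein genes and -1.01 without neuron-like cells. No called value changed sign. Of 60 levels by class, 1 moved by over 1.5 times at resolution 1.0, 2 at 0.25, 6 without doublets and 12 with each library clustered alone; among the last, SFRP2 in Glut-like and NNP-like cells of D22 was 7.94 and 8.55 CPM and RSPO3 in IRX-like cells of D26 was 14.4 CPM. At resolution 0.25 SFRP2 in PNP-like cells of D22 was 192 CPM. With XAV939, SFRP5, DKK1 and CER1 had under 50 UMIs over both libraries at D5 and at D10.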
